A study of Homo sapiens with 6 samples.

Results

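The genes described here are LIN28A, LIN28B, TRIM71, HMGA2, IGF2BP1, IGF2BP2 and IGF2BP3, a set of genes of the LIN28 and let-7 pathway. Most of them are active in embryonic cells and return in some tumours. The members of this set in the data are the ZIC2-bound regions within 100 kb of the 7 gene starts, measured to the nearest edge of a region. There were 24 such regions among 16077 different regions in all. The genes were selected on results from the same peak lists, in part because the 2 widest regions found in both genotypes lie near TRIM71, so class and width are given below as a description without a test. The gene starts are hg19 positions given to the nearest 1 kb, and a distance can therefore be off by 0.5 kb.

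The regions come from CUT&Tag, an assay that directs a cutting and tagging enzyme, a transposase, to the DNA around a protein by means of an antibody. It was run for the zinc-finger transcription factor ZIC2 in the human embryonic stem cell line H1 (WA01). One group was wild type (WT, 2 ZIC2 libraries), and the other lacked the zinc-finger protein ZNF263 through Cas9 deletion (KO, 2 ZIC2 libraries, labelled as a homogeneous knockout). A rabbit IgG library of each genotype was not analysed here. The labels do not say whether the knockout cells are 1 clone, or whether replicates were separate cultures. The comparison addresses how ZIC2 binding differs when ZNF263 is absent. The deposited data are 1 list of region positions per genotype, with no height, score, read count or value per library. The depth is thus unknown, no replicate error exists, and a region missing from a list is not a measured loss of binding. All 4120 shared regions have identical edges in both lists, as regions drawn from 1 joint set would. The sources used here do not give the rule that put a region into each list, so shared, WT-only and KO-only below mean membership of the deposited lists, and "called" means listed.

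LIN28A and LIN28B are RNA-binding proteins that hold back the maturation of let-7 microRNAs in early embryonic cells. Let-7 in turn represses the messenger RNAs of TRIM71, HMGA2, the IGF2BP genes and LIN28 itself, so that the pathway switches between an embryonic and a differentiated state. All but HMGA2 encode proteins that bind RNA, whereas HMGA2 is a small chromatin protein that binds AT-rich DNA. LIN28A and TRIM71 are well known as genes of pluripotent stem cells.

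The sequences just before the starts are shown for the members that have a ZIC2 region within 2 kb of the start and an entry in the RefSeq promoter table (build GRCh38.p14), since these are the promoters beside which regions were called. The table matched 4 of the 7 members (TRIM71, LIN28B, IGF2BP2 and IGF2BP3) with 6 windows of 250 bases before to 50 after a start. LIN28A, HMGA2 and IGF2BP1 were not matched. Each line gives the 250 bases before a start, 5′ to 3′ on the strand of the gene. Capitals mark a match to GGGAGGA, the core of the published ZNF263 motif, or to its reverse complement TCCTCCC.
TRIM71 (chr3:32817747-32817996, plus strand): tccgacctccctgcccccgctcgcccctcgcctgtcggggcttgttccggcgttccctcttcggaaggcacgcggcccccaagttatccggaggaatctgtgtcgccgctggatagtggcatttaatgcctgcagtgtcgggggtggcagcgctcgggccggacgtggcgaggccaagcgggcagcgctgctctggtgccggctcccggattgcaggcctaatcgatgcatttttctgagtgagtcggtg
LIN28B, upstream start (chr6:104940715-104940964, plus strand): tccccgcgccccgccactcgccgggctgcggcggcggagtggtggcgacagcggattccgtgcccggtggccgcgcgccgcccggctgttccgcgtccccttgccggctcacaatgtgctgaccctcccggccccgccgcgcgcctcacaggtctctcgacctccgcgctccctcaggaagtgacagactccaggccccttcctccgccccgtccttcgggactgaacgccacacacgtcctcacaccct
LIN28B, downstream start (chr6:104956857-104957106, plus strand): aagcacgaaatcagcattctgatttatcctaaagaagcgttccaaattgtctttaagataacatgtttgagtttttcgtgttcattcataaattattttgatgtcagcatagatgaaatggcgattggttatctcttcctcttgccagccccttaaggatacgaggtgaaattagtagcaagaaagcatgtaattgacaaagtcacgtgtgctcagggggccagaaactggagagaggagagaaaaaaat
IGF2BP3 (chr7:23470492-23470741, minus strand): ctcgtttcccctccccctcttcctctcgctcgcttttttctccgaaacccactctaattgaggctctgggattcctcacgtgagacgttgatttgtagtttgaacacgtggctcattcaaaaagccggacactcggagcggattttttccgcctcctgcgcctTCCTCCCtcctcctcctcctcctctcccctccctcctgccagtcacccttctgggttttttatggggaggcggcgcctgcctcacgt
No position was converted between the builds, and the table's starts were not matched to the hg19 starts. The printed bases are therefore the promoters of genes with a region nearby, not the sequences of the regions. Whether a region reaches into them was not tested. By the hg19 distance given below, the nearest TRIM71 region lies farther upstream than 250 bases even when the rounding of the start is counted, which does not hold for IGF2BP3.

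GC content differed among the printed promoters. It was 66.0% for TRIM71, 73.6% for the upstream and 38.4% for the downstream LIN28B start, and 56.8% for IGF2BP3. The letters CAGCAGG, the core of the ZIC motif, were searched on both strands (reverse complement CCTGCTG) and were found in 0 of the 6 windows of members, against 10.5% of 34796 different promoter windows of the same length. GGGAGGA was found on either strand in 2 of the 6 windows, those of IGF2BP3 and of 1 of the 2 IGF2BP2 starts, against 18.1% of all windows. Both matches were on the strand opposite to the gene, and their first letters lay 87 bases (IGF2BP3) and 224 bases (IGF2BP2) before the start. The motifs can share letters where CAGCAGG runs into GGGAGGA, which did not occur here. A match is a description of the letters, and none of these windows was shown to be bound.

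Of the 24 regions, 13 were in both lists (shared), 5 in the WT list but not the KO list (WT-only), and 6 in the KO list but not the WT list (KO-only). The shared part was 54.2% (exact Clopper-Pearson 95% interval 32.8 to 74.4), beside 25.6% of all 16077 regions. WT-only regions made up 20.8% (7.13 to 42.2) beside 55.0% of all, and KO-only regions 25.0% (9.77 to 46.7) beside 19.4% of all. The 7 genes thus had 18 WT and 19 KO regions, or 106 KO regions per 100 WT regions, whereas the whole lists had 12966 and 7231, or 55.8 per 100. Of the WT regions near the genes, 27.8% (9.69 to 53.5) were not called in KO, beside 68.2% of the whole WT list. Of the KO regions, 31.6% (12.6 to 56.6) were not called in WT, beside 43.0% of the whole KO list. These intervals reflect counting error alone, and neighbouring regions are not independent. The genes were chosen with these values known, so nothing is read from the gap between the shares.

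**Figure D1:**
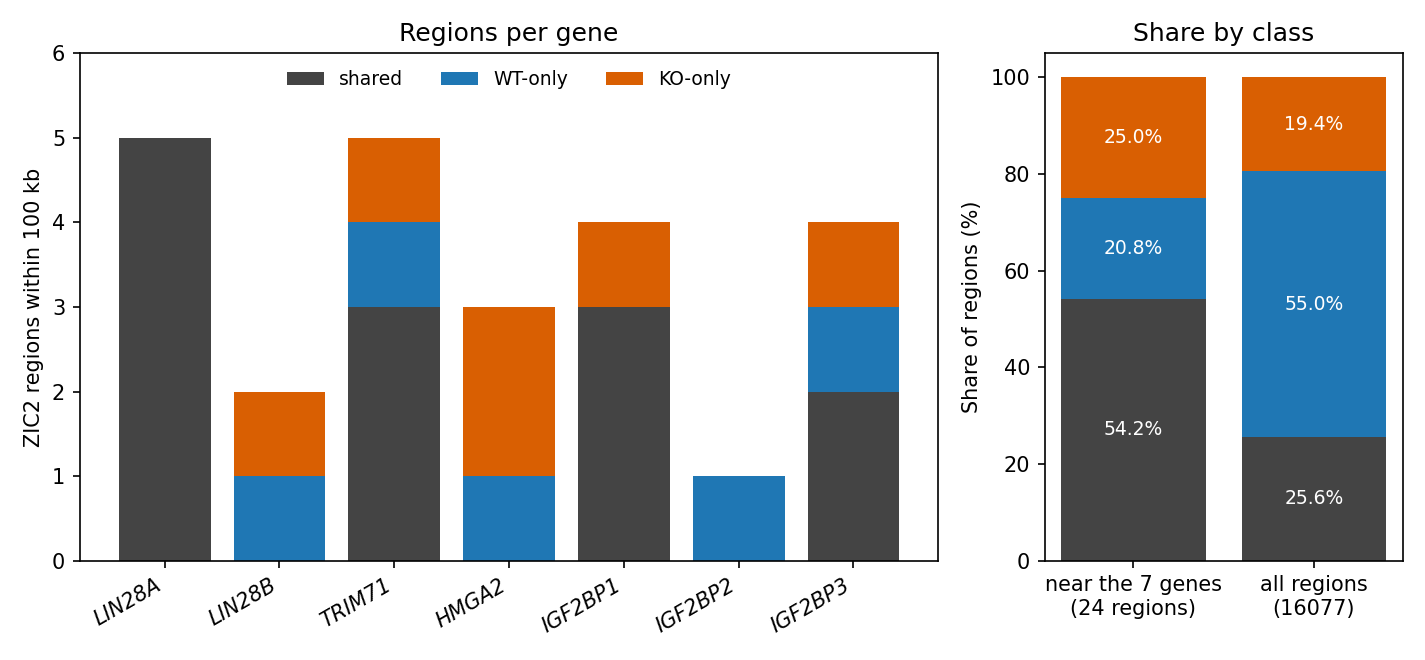
Left, number of ZIC2 regions within 100 kb of each gene start, stacked by class (shared, WT-only, KO-only). Right, share of each class in percent among the 24 regions near the 7 genes and among all 16077 regions. All 5 LIN28A regions are shared, and the LIN28B, HMGA2 and IGF2BP2 bars hold none.

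The genes fell apart by class. Shared regions lay near LIN28A (5), TRIM71 (3), IGF2BP1 (3) and IGF2BP3 (2), and the windows of LIN28B, HMGA2 and IGF2BP2 held 0. WT and KO regions were equal in number at 4 genes (TRIM71, LIN28A, LIN28B and IGF2BP3). KO regions were more numerous at 2 (HMGA2 and IGF2BP1), and WT regions at 1 (IGF2BP2). TRIM71 and IGF2BP3 had all 3 classes within 100 kb. For comparison, all 3 classes were held by 723 of the 2133 stretches of 200 kb with at least 3 regions, the fewest that can hold them. Of all 7065 stretches of 200 kb that hold any region, 10.2% held all 3 classes and 15.8% had more KO than WT regions. Stretches with equal numbers or with more WT regions were not counted. The 4 genes with equal numbers thus have no background here and are not read as a trait of the set.

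A region lay over or within 2 kb of the start at 6 of the 7 genes, and its class differed from gene to gene. It was shared at LIN28A and IGF2BP1, WT-only at LIN28B, HMGA2 and TRIM71, and KO-only at IGF2BP3. The TRIM71 region, at 1.74 kb, is inside this limit by less than the rounding of the start. IGF2BP2 was the exception, with its nearest region 17.1 kb away. The share of all gene starts with a region this close was not analysed here for want of an hg19 annotation. The count of 6 of 7 is therefore not read as a trait of these genes. Between 25 and 50 kb from the starts all 3 regions were shared. Between 50 and 100 kb 3 were shared and 3 were KO-only. Each of the 5 WT-only regions was less than 25 kb from a start, along with 3 of the 6 KO-only and 7 of the 13 shared regions. A KO-only region of IGF2BP1, at 24.7 kb, is inside that limit by less than the rounding of the start. Classes by distance from all gene starts were not analysed here either, so these small counts are not read as a trait of the classes.

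**Figure D2:**
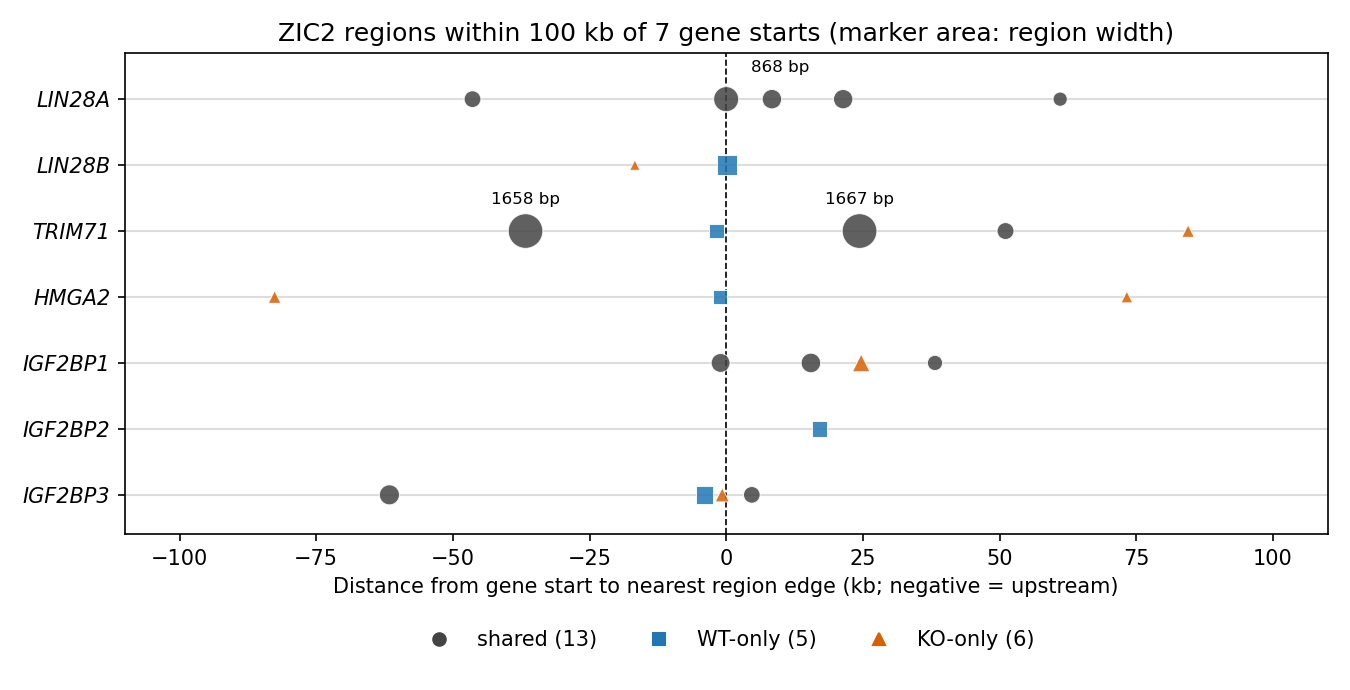
Each marker is a ZIC2 region, placed by the distance in kb from the gene start (dashed line) to its nearest edge, with upstream in the direction of transcription on the left. Marker shape and colour give the class and marker area the width. The 2 largest markers, 1658 and 1667 bp, flank the TRIM71 start, and a WT-only, a KO-only or a shared region sits close to the start at every gene but IGF2BP2.

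LIN28A, the LIN28 paralog most closely tied to pluripotent cells and a factor used in reprogramming, had 5 regions, each called in both genotypes. The widest, chr1:26736477-26737344 (868 bp), covered the start as given and was wider than 91.1% of all shared regions. Downstream of the start lay chr1:26745373-26745896 (524 bp, 8.37 kb away), chr1:26758423-26758940 (518 bp, 21.4 kb) and chr1:26798088-26798367 (280 bp, 61.1 kb). One region lay upstream, chr1:26690229-26690617 (389 bp, 46.4 kb). These regions summed to 2579 bp in either list, because shared regions have the same edges in both. The next protein-coding genes in GRCh38 order are ZNF683 upstream and DHDDS downstream, and which gene a region belongs to was not analysed here.

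Windows with 5 or more regions, each of them shared, were rare in the lists. Around every region of the assembled chromosomes, 100 kb to each side of its midpoint, 4735 of 16045 stretches held at least 5 regions. In 4 of them (0.0845%) each of these was shared, and 2 of the 4 were centred on regions near LIN28A. Among fixed 200 kb stretches with at least 5 regions, where the edges do not follow the regions, 0 of 690 were of this kind. Shared regions made up 32.2% of the regions in those 690 stretches. The fixed stretch around the LIN28A start was not of this kind either. It also held a WT-only and a KO-only region, 136 and 135 kb upstream, outside the 100 kb limit. Whether all regions there were shared thus depended on where the stretch was placed. Overlapping stretches are not independent, and LIN28A was not picked before its regions were seen.

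LIN28B, the second LIN28 gene, had 2 regions and none in common between the genotypes. Of 1724 stretches of 200 kb with 2 regions, 60.8% also held 0 shared regions, and 24.1% held 1 WT-only and 1 KO-only region. The WT list held chr6:105405164-105405726 (563 bp), which began 0.164 kb downstream of the start, a distance smaller than the rounding of the start. It was wider than 93.7% of WT-only regions and ranked 557 among 8846. The KO list held chr6:105388121-105388270, 16.7 kb upstream and 150 bp wide, the smallest width in the lists. Positions called near LIN28B therefore differed between the lists, at 563 bp in WT and 150 bp in KO. The RefSeq promoter table gives LIN28B starts that are 16.1 kb apart on GRCh38, and the gap between the WT-only and the KO-only region was 16.9 kb on hg19. Whether each region sits at one of these starts was not tested, since the builds differ.

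TRIM71, a ubiquitin ligase and RNA-binding repressor also known as LIN41, had the 2 widest regions of the whole data set. The widest, chr3:32884350-32886016 (1667 bp), lay 24.4 kb downstream of the start, and the next, chr3:32821653-32823310 (1658 bp), lay 36.7 kb upstream. Both were shared, and 61.0 kb separated them. The widest was 3.62 times the median width of shared regions (460 bp), and the third widest region of either list, on chromosome 12, measured 1620 bp. Together the pair held 27.8% of the 11974 bp covered by the 24 regions.

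The other TRIM71 regions were far narrower than this pair. A shared region, chr3:32911091-32911487 (397 bp), lay 51.1 kb downstream and was wider than 40.4% of shared regions. The region nearest to the start, chr3:32857967-32858265 (299 bp), lay 1.74 kb upstream and was called in WT but not in KO. It was wider than 75.1% of WT-only regions. A KO-only region, chr3:32944506-32944724 (219 bp), lay 84.5 kb downstream and was wider than 60.7% of KO-only regions. Summed over the window, WT regions covered 4021 bp and KO regions 3941 bp. The neighbouring protein-coding genes are CNOT10 upstream and CCR4 downstream.

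HMGA2, an architectural chromatin protein and a classic let-7 target, had 3 regions and 0 shared ones. The WT list held chr12:66216623-66216910 (288 bp), 1.09 kb upstream of the start. The KO list held chr12:66135199-66135420 (222 bp), 82.6 kb upstream, and chr12:66291325-66291513 (189 bp), 73.3 kb downstream. The WT region was thus close to the start and the KO regions far from it. Among 2133 stretches of 200 kb with at least 3 regions, 618 (29.0%) also held 0 shared regions. Of the 933 stretches with exactly 3 regions, 41.8% held 0 shared regions and 6.54% held 1 WT-only and 2 KO-only regions, the numbers seen at HMGA2.

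The IGF2BP proteins bind messenger RNAs and affect their stability and translation. IGF2BP1 had 3 shared regions and 1 KO-only region, and no WT-only region. The first shared one, chr17:47073491-47073984 (494 bp), lay 1.02 kb upstream of the start. Downstream followed chr17:47090545-47091072 (528 bp, 15.5 kb) and chr17:47113218-47113537 (320 bp, 38.2 kb), both shared. Between these lay the KO-only region chr17:47099731-47100159 (429 bp, 24.7 kb), which was the widest of the 6 KO-only regions near the genes and wider than 85.9% of KO-only regions. In sum 1342 bp were covered in WT and 1771 bp in KO. The neighbours in gene order are GIP upstream and B4GALNT2 downstream.

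IGF2BP2 had a single region, chr3:185525536-185525866 (331 bp), 17.1 kb downstream of the start and WT-only. No KO region lay within 100 kb of it. A window with 1 region was the commonest kind, at 45.4% of the 200 kb stretches that hold any. That region was WT-only in 64.2% of them, and 40.3% of the 7065 stretches held 0 KO regions. The nearest region beyond the limit was a shared one, chr3:185655666-185656029 (364 bp), 113 kb upstream.

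IGF2BP3 had regions of all 3 classes within 9.44 kb around its start, on a gene read from the minus strand. That span was taken after the regions were seen, and how often all 3 classes lie this close together was not counted. The KO-only region chr7:23510721-23510996 (276 bp) lay 0.721 kb upstream, and the WT-only region chr7:23513940-23514364 (425 bp) lay 3.94 kb upstream, with a gap of 2.94 kb between them. A shared region, chr7:23504929-23505312 (384 bp), lay 4.69 kb downstream. The KO-only region was the nearest to the start in the KO list. In the WT list the WT-only region was nearest with the start as given, but with the start 0.5 kb lower the shared region was nearer (4.19 against 4.44 kb). A second shared region, chr7:23571557-23572112 (556 bp), lay 61.6 kb upstream, on the side of the neighbouring gene TRA2A. WT regions covered 1365 bp and KO regions 1216 bp.

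Width differed among the members in the same order as in the whole lists. The 13 shared regions had a median of 518 bp and a range of 280 to 1667 bp, beside a median of 460 bp for all shared regions. Without the TRIM71 pair the median was 494 bp. With that pair counted, 8 of the 13 were at or above the median of all, and the pair was part of the choice of these genes. The 5 WT-only regions ran from 288 to 563 bp with a median of 331 bp, and all 5 were wider than the median WT-only region (181 bp). The 6 KO-only regions ran from 150 to 429 bp with a median of 220.5 bp, and 5 of them were wider than the median KO-only region (167 bp). At the smallest width of 150 bp stood 1 of the 24 regions (4.17%), beside 30.3% of all regions.

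Wider regions are more often shared throughout the lists, and a shared region has 1 width common to both genotypes. From 301 to 600 bp, 9 of 13 regions near the genes were shared, beside 43.5% of the 4190 regions of that width in all. From 151 to 300 bp it was 1 of 7, beside 19.5% of 5079. Above 600 bp all 3 regions near the genes were shared, those of TRIM71 and LIN28A, beside 65.8% of all regions from 601 to 1000 bp and 76.0% of those above. The part of width in the classes of these regions was not tested.

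**Figure D3:**
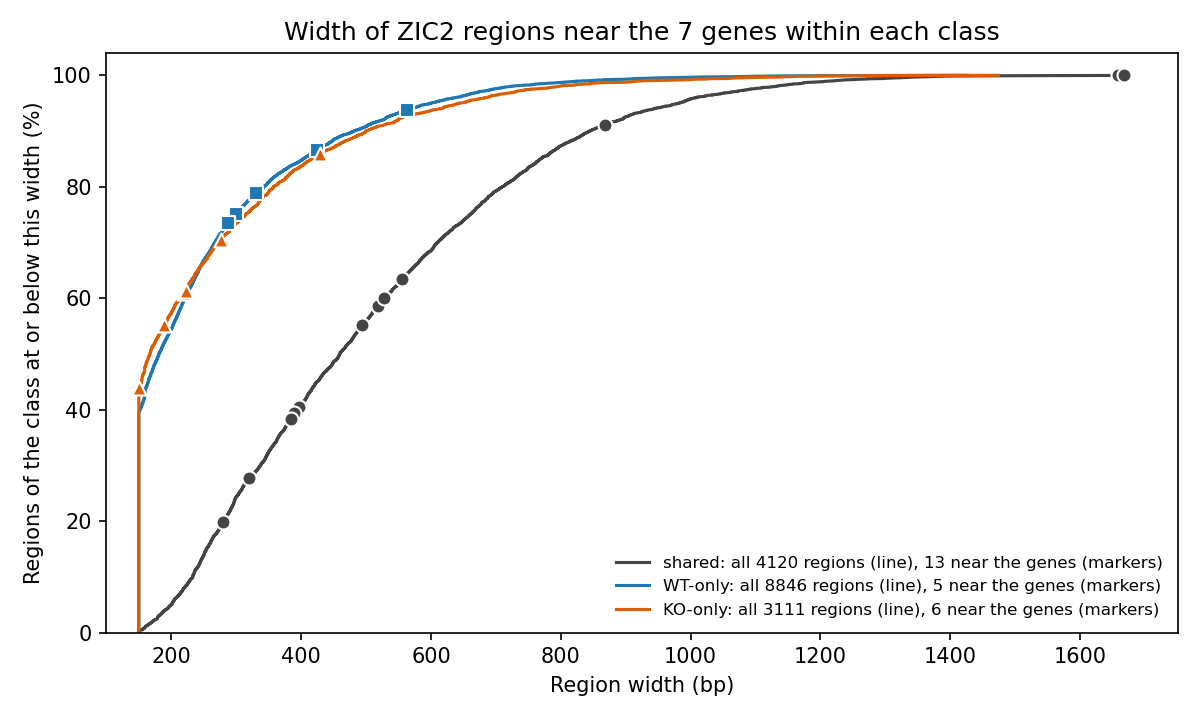
Lines give, for all shared, WT-only and KO-only regions, the percent of the class at or below each width in bp. Markers show the 24 regions near the 7 genes on the line of their class. The TRIM71 pair sits at the far end of the shared line, and the WT-only markers lie between 288 and 563 bp, in the upper part of their class.

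Crowding also went with the class. LIN28A and TRIM71 each had 5 regions within 100 kb, IGF2BP1 and IGF2BP3 had 4, HMGA2 had 3, LIN28B 2 and IGF2BP2 1. The median fixed stretch of 200 kb with any region held 2, and 9.77% held at least 5. Stretches centred on a region, 100 kb to each side, held a median of 3, and 4735 of 16045 held at least 5. Most of the gene windows have a region close to their centre, so the centred stretches are the closer background. Shared regions made up 16.9% of regions in stretches with 1 region, 22.4% with 2, 26.5% with 3, 28.7% with 4 and 32.2% with 5 or more. The 4 genes with 4 or more regions had all 13 shared regions, and the 3 genes with fewer had 0. Holding 0 shared regions is common in such stretches, at 60.8% of those with 2 regions and 41.8% of those with 3. Crowding, width and class move together here, and their separate parts were not tested.

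The limit of 100 kb divided the regions as follows. The outermost regions inside it were the KO-only regions of TRIM71 (84.5 kb) and HMGA2 (82.6 kb) and a KO-only region of HMGA2 at 73.3 kb. Just outside lay a shared region of IGF2BP1, chr17:46969659-46970429 (771 bp, 105 kb upstream), the shared region of IGF2BP2 at 113 kb, and a WT-only region of LIN28A, chr1:26856894-26857990 (1097 bp, 120 kb downstream).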

How the data were processed

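ZIC2 CUT&Tag was run on 2 WT and 2 KO libraries of H1 cells. Per the submitters' processing notes, reads were handled with Bowtie2 and Picard on hg19. Not given in the sources used here are the peak caller and its threshold, how IgG entered, and how the replicates were pooled. The deposited files hold 3 columns without a header (chromosome, start, end), with 1 list per genotype, so depth is unknown and no test or left-out replicate was possible. All 4120 overlapping pairs had identical edges. Analysis used Python 3.11.15, pandas 2.3.3 and, for intervals, scipy 1.17.1. Regions overlapping by at least 1 bp were called shared. Coordinates are counted from 1. Strands came from the RefSeq promoter table or, for LIN28A, HMGA2 and IGF2BP1, from general knowledge. Every gene and every region within 100 kb was named by rule. Members and lists were chosen with earlier results of these data known. Stretches of 200 kb were counted by region midpoints. Region classing and distances were tested on simulated data. Gene names in order came from a GRCh38.p14 table. With no hg19 annotation, exons, introns, other pathway genes and the sequences of the regions were not analysed here, nor were proteins.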

Additional observations from a re-analysis of the deposited data

How the results depend on the processing

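The counts and shares were recomputed with other distance limits, starts moved by 0.5 kb either way, regions above the smallest width, regions joined within 1 kb and edges within 1 kb counted as shared. Requiring 50% reciprocal overlap is no test, because overlapping regions share both edges and the outcome was fixed. The settings of 1 kb for joining and for edges could not change a count either, as the smallest gap between these regions was 2.94 kb. Nor could moving the starts by 0.5 kb, since the regions closest to the 100 kb limit lay at 84.5 and 105 kb. Counts of shared, WT-only and KO-only regions under these settings, and the settings without TRIM71 or LIN28A, were added after seeing the data. Within 200 kb there were 30 WT regions, 27 KO regions and 12 WT-only regions, and within 50 kb there were 15 WT, 13 KO and 3 KO-only regions, so the slight lead of KO regions at 100 kb (19 against 18) did not hold at either limit. Above the smallest width the lists were even at 18 each. Without LIN28A the shared regions fell from 13 to 8, and 38.5% of the WT regions lacked a KO counterpart. That percentage ranged from 27.8 to 40.0 over the settings run, and the percentage of KO regions without a WT counterpart from 23.1 to 42.9. The 42.9% was the value without LIN28A, beside 43.0% of the whole KO list. The lower share of 31.6% near all 7 genes thus rested on LIN28A. The median shared width ranged from 472 to 521 bp. With the coding strand only, GGGAGGA was found in 0 of the 6 promoter windows. No paired analysis was possible because the files hold only 1 list per genotype, which also prevented leaving out a replicate. Comparison of the proteins, and of other pathway genes, was not run for want of tables. Without read counts a weak region cannot be told from an uncalled one.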

Other observations

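Beyond 100 kb and up to 200 kb from the starts lay 15 further regions. Shared ones numbered 5 (33.3%), next to 7 WT-only and 3 KO-only regions. LIN28A, IGF2BP1 and IGF2BP3 had 4 each, IGF2BP2 had 2 and LIN28B had 1. TRIM71 and HMGA2 had 0. The LIN28A surroundings changed in make-up past the limit, with 1 shared, 2 WT-only and 1 KO-only region, among them the WT-only region of 1097 bp at 120 kb downstream. The nearest region to TRIM71 beyond its own 5 was a shared one, 376 bp wide and 247 kb upstream.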
